A study of Mus musculus with 32 samples.

Results

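The genes described here are 31 genes of excitatory hippocampal neuron identity, followed library by library in cultured mouse neurons. They were taken by symbol from the total RNA table, in which each symbol is 1 of 51267 features, and the rule uses symbols alone. All 31 passed the filter on low counts, and the smallest count of any of them in any of the 16 libraries was 71. The cells were primary hippocampal neurons prepared from mice at birth (P0) and treated on day 16 in vitro for 30 minutes. The 6 FSK libraries come from cells given 50 µM forskolin, an activator of adenylyl cyclase, the enzyme that makes cAMP, and the 6 DHPG libraries from cells given 30 µM DHPG, an agonist of group I metabotropic glutamate receptors. The 4 DMSO libraries come from cells given an equal volume of the solvent, and both treatments are set against these same 4. No transgene or mutation is given in the labels for any group, and the labels do not state whether replicates are separate cultures or animals, so p-values measure the spread between these libraries.

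Excitatory neurons of the hippocampus fill synaptic vesicles with glutamate through vesicular glutamate transporters. Their identity is set in development by basic helix-loop-helix factors of the NeuroD family and by transcription factors that mark the dentate gyrus, the CA fields or cortical layers, and it is carried in the mature cell by proteins of the dendritic spine such as calmodulin-dependent kinase II. The 31 genes were sorted by these roles into 2 vesicular transporters, 4 bHLH factors, 15 transcription factors of forebrain regions, subfields and layers, 5 genes of dendritic and postsynaptic signalling, and 5 other subfield and layer markers. Of the 31, 11 are also known from interneurons, glia or progenitors (Prox1, Bcl11b, Mef2c, Meis2, Zbtb20, Lhx2, Cux1, Cux2, Pou3f1, Tle4 and Dkk3). The cultures held other cells: levels in CPM (counts scaled to a common library total) ranged over 133 to 336 in FSK, 295 to 369 in DHPG and 199 to 363 in DMSO libraries for Gad1, which makes GABA, and over 894 to 2575 in FSK, 486 to 1229 in DHPG and 612 to 1979 in DMSO libraries for the astrocyte filament gene Gfap. In bulk RNA, fewer cells of a type and less RNA per cell cannot be told apart.

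The libraries fell into sets by depth, which the labels do not describe. FSK 4 to 6, DHPG 6 and DMSO 2 to 4 formed the deep set (38409918 to 59958600 counts in each), in which mitochondrial rRNA took 10.8 to 27.7%. FSK 1 to 3, DHPG 1 to 5 and DMSO 1 formed the shallow set (20677117 to 24892959 counts), in which it took 1.47 to 2.92%. Only 1 DMSO library was shallow and only 1 DHPG library deep, so each comparison is given with and without a model term for the library set. FSK 4 and FSK 5 stood apart further, with microglial and oligodendrocyte markers described beside the results they touch. Stimulation was visible in the immediate-early genes, where Fos averaged 544 ± 169.9 CPM in FSK and 93.0 ± 57.0 CPM in DMSO libraries (2.55 ± 0.45 log2 units, adjusted p = 0.021) and Arc 198 ± 41.6 CPM in FSK and 43.6 ± 25.4 CPM in DMSO (2.18 ± 0.31, adjusted p = 0.007; SD, n = 6 and 4). With DHPG these 2 genes averaged 208 ± 95.3 CPM for Fos and 147 ± 35.1 CPM for Arc (SD, n = 6), and neither passed against DMSO (1.16 ± 0.43, adjusted p = 0.4 and 1.75 ± 0.31, adjusted p = 0.26).

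RefSeq promoter windows of build GRCm38.p6 were found for 26 of the 31 genes. Shown are the 250 bases before an annotated start of 4 of the 5 genes that were lower with FSK in 3 fits described below. These are FSK against DMSO with the library-set term and FSK against DHPG with and without it, and the fifth gene is Pou3f1. The Camk2b window lies inside the annotated span of that gene, which reaches chr11:6066357, so it precedes an internal start. Capitals mark the E-box CANNTG, the site bound by bHLH factors such as those of the NeuroD family, and TGACG, the core of the cAMP response element TGACGTCA, each searched on both strands.
Camk2b (chr11:6065749-6065998, minus strand): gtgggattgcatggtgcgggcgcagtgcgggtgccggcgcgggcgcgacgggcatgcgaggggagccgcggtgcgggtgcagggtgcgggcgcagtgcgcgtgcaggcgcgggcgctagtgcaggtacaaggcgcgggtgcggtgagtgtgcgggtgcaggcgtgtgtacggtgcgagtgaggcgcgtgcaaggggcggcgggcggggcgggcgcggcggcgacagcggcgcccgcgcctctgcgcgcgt
Icam5 (chr9:21031788-21032037, plus strand): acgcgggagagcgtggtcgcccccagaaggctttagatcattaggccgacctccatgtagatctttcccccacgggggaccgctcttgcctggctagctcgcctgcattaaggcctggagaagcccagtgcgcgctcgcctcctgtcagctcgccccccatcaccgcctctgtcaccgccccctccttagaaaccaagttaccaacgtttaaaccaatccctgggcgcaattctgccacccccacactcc
Neurod2 (chr11:98329646-98329895, minus strand): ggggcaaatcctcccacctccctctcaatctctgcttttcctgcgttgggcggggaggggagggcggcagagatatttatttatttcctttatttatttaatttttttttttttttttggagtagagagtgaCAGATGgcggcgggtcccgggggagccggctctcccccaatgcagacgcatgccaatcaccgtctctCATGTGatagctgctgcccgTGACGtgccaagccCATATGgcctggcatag
Slc17a7 (chr7:45163671-45163920, plus strand): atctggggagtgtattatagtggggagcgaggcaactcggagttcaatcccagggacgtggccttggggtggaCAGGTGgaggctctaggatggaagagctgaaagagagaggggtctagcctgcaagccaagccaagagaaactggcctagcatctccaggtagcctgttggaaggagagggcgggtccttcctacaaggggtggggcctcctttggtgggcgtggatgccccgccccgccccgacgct
The Neurod2 window held 3 E-boxes, beginning 118, 51 and 17 bases before the start, and 1 TGACG beginning 31 bases before it. The Slc17a7 window held 1 E-box beginning 177 bases before the start, and neither motif stood in the other windows. Over all genes with a window, TGACGTCA stood in 1.55% of 32851 windows and in 0 of the 38 windows of these genes, some of which overlap. The core TGACG, which TGACGTCA contains, stood in 17.8% of all windows and in 4 of the 38, those of Fibcd1, Lhx2, Neurod2 and Slc17a6. E-boxes stood in 66.2% of all windows and in 24 of the 38. Their form CAGATG stood in 14.4% of all windows and in 12 of the 38, from 8 genes: Cux2, Mef2c, Neurod2, Nrgn, Prox1, Slc17a6, Wfs1 and Zbtb18. A match is a description of these letters only.

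Against DMSO most of these genes had negative values with forskolin, and the calls depended on the model and on single libraries. Over all libraries without the library-set term, 0 of the 31 genes passed in the edgeR quasi-likelihood test against DMSO, where 0.809% of the 17173 features tested passed and 0.46% were lower. Of the 31, 11 had an unadjusted p under 0.05, as did 3658 of the 17173 features. DESeq2 called 7 of the 31 and limma-voom 1, with no share over all features given here for either method. The median log2 fold change of the 31 was -0.27, beside 0.02 over all features tested, and 22 of the 31 were negative. With the library-set term 8 were lower with FSK and 0 higher, where 9.45% of all features passed, 5.99% lower and 3.45% higher: Slc17a7, Neurod2, Emx1, Pou3f1, Lhx2, Camk2b, Icam5 and Itpka. That is a larger share than over all features, with no test of that difference. The median with the term was -0.29, beside 0.03 over all features. Every FSK library lay below every DMSO library for 5 genes (Slc17a7, Neurod2, Emx1, Pou3f1 and Itpka), as did 4.36% of all features, and above for none, as did 3.62%.

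These counts depended on single libraries. The 8 calls with the term became 0 without FSK 4 and FSK 5, with a median of -0.10, where 0.335% of all features passed and 0.0658% were lower, so calls were few over the whole table. All 8 genes kept a negative value there, from -0.25 ± 0.11 for Slc17a7 to -1.02 ± 0.21 for Pou3f1. Leaving out 1 library gave 2 to 11 calls, all lower, with 4 without DMSO 1, 3 without DMSO 2, 2 without DMSO 3 and 4 without DMSO 4. There were 4 without DHPG 2, DHPG 3 or DHPG 5, 3 without FSK 1, 5 without FSK 2 and 3 without FSK 4 or FSK 5. Shares over all features are not given for these fits, so the moves cannot be read as particular to these genes. Without the term and without FSK 4 and FSK 5 again 0 passed, where 0.227% of features passed and 0.0718% were lower, with a median of -0.13. In the authors' deposited table, where 8% of the features with an adjusted p passed, 6 of the 31 were lower and 0 higher.

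**Figure D1:**
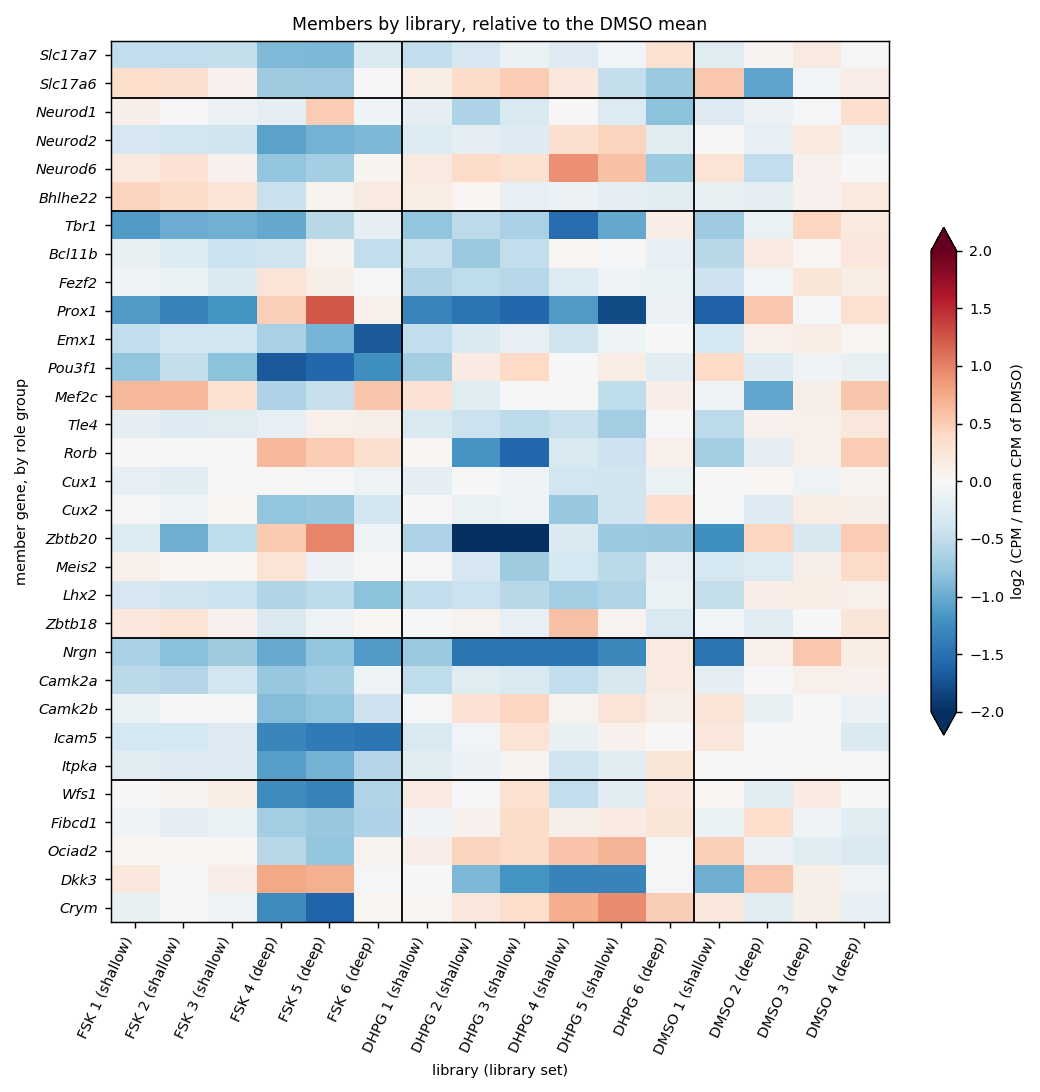
Heat map of the 31 genes (rows, grouped by role with black lines) in the 16 libraries (columns, FSK, DHPG, then DMSO, with the library set in brackets). Colour is log2 of the CPM over the mean CPM of the 4 DMSO libraries, clipped at -2 and 2; Pou3f1, Icam5 and Neurod2 are blue in all of FSK 4 to 6, while Prox1 is lower in every shallow than in every deep library.

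Of the vesicular glutamate transporters, Slc17a7 (VGLUT1), the main transporter of hippocampal pyramidal and granule cells, was lower with FSK. It had 430.3, 426 and 644 CPM in FSK 4, 5 and 6, against 821, 894 and 777 CPM in DMSO 2, 3 and 4. In the shallow set it had 561, 562 and 569.8 CPM in FSK 1, 2 and 3, against 667 CPM in DMSO 1. All 6 FSK libraries lay below all 4 DMSO libraries, and FSK 6 lay above the other 5. The log2 fold change was -0.57 ± 0.15, adjusted p = 0.08, and with the library-set term -0.52 ± 0.15, adjusted p = 0.047, while the authors' deposited table gives -0.58 ± 0.16, adjusted p = 0.0089. Slc17a6 (VGLUT2), a transporter more typical of immature and subcortical neurons, had 3.91, 3.89 and 6.40 CPM in FSK 4, 5 and 6, against 3.07, 6.19 and 7.06 CPM in DMSO 2, 3 and 4. It had 8.16, 8.04 and 6.82 CPM in FSK 1, 2 and 3, against 9.32 CPM in DMSO 1. These groups overlapped in the deep set, and the values with the term were -0.24 ± 0.23, adjusted p = 0.49.

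Among the bHLH factors, Neurod2, which acts in postmitotic neurons to promote their differentiation and survival, had 17.2, 18.7 and 19.2 CPM in FSK 4, 5 and 6, against 32.1, 41.3 and 33.9 CPM in DMSO 2, 3 and 4. It had 28.5, 27.9 and 27.3 CPM in FSK 1, 2 and 3, against 36.7 CPM in DMSO 1. Every FSK library was below every DMSO and every DHPG library, and the deep FSK libraries were the lowest. The log2 fold change was -0.64 ± 0.18, adjusted p = 0.086, and -0.77 ± 0.16, adjusted p = 0.015 with the term. Its close relative Neurod6 had 49.4, 53.4 and 88.3 CPM in FSK 4, 5 and 6, against 60.8, 90.8 and 86.3 CPM in DMSO 2, 3 and 4, so that FSK 6 lay among the deep DMSO libraries. In the shallow set Neurod6 had 97.4, 105 and 90.8 CPM in FSK 1, 2 and 3, against 104 CPM in DMSO 1. Neither Neurod6 (-0.29 ± 0.20, adjusted p = 0.32 with the term) nor Neurod1, which drives differentiation of dentate granule cells (0.05 ± 0.18, adjusted p = 0.86), passed. Bhlhe22, a repressor of the bHLH class that shapes projection neurons, had 61.0, 88.0 and 94.8 CPM in FSK 4, 5 and 6, against 74.0, 88.6 and 95.9 CPM in DMSO 2, 3 and 4. Its shallow libraries had 113, 108 and 101 CPM in FSK 1, 2 and 3, against 75.3 CPM in DMSO 1, higher with FSK there, and with the term it had 0.11 ± 0.14, adjusted p = 0.62.

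The 15 transcription factors of forebrain regions, subfields and layers divided. With the library-set term 3 were lower with FSK (Pou3f1, Emx1 and Lhx2), 0 were higher, and the median of the 15 was -0.03. Pou3f1, a POU domain factor found in the CA1 field and upper cortical layers, had 1.64, 1.77 and 2.25 CPM in FSK 4, 5 and 6, against 4.37, 5.03 and 4.72 CPM in DMSO 2, 3 and 4. Shallow libraries had 3.05, 3.78 and 2.97 CPM in FSK 1, 2 and 3, against 6.89 CPM in DMSO 1. The groups did not overlap in either set, and the log2 fold change was the farthest from 0 of the 31 with the term (-1.20 ± 0.19, adjusted p = 0.0052; -1.03 ± 0.25, adjusted p = 0.064 without it).

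Emx1, a homeobox factor of the dorsal forebrain, was present at a low level, with 5.30, 4.37 and 2.60 CPM in FSK 4, 5 and 6, against 8.98, 9.25 and 8.52 CPM in DMSO 2, 3 and 4. It had 5.93, 6.37 and 6.42 CPM in FSK 1, 2 and 3, against 6.54 CPM in DMSO 1. FSK 6 was the lowest of all 16 libraries, whereas FSK 3 and DMSO 1 nearly met. The log2 fold change was -0.74 ± 0.22, adjusted p = 0.045 with the term and -0.69 ± 0.21, adjusted p = 0.097 without it. Lhx2, a LIM homeobox factor needed to form the hippocampus, had 45.7, 48.1 and 39.1 CPM in FSK 4, 5 and 6, against 75.9, 76.8 and 74.8 CPM in DMSO 2, 3 and 4. It had 54.7, 52.6 and 51.6 CPM in FSK 1, 2 and 3, against 49.8 CPM in DMSO 1, so DMSO 1 lay far below the other DMSO libraries and within the FSK range. With the term the value was -0.47 ± 0.14, adjusted p = 0.047, and without it -0.51 ± 0.14, adjusted p = 0.078.

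The other 12 of these factors did not pass against DMSO. Zbtb20, which specifies CA1 pyramidal neurons and is also made by astrocytes, had 292, 397 and 189 CPM in FSK 4, 5 and 6, against 273, 163 and 288 CPM in DMSO 2, 3 and 4. In the shallow set it had 168, 103 and 142 CPM in FSK 1, 2 and 3, against 86.1 CPM in DMSO 1, a wide spread in every group (0.33 ± 0.37, adjusted p = 0.56 with the term). Zbtb18, a repressor that controls the birth and migration of cortical neurons, had 180.5, 205 and 228 CPM in FSK 4, 5 and 6, against 190.2, 220.4 and 261 CPM in DMSO 2, 3 and 4, and 257, 268 and 233 CPM in FSK 1, 2 and 3, against 213 CPM in DMSO 1. Its fold change was near 0 (-0.03 ± 0.14, adjusted p = 0.91). Tbr1, a T-box factor of early postmitotic glutamatergic neurons, had 4.30 to 8.22 CPM (median 4.81) in FSK and 5.70 to 12.7 CPM in DMSO libraries (-0.57 ± 0.21, adjusted p = 0.08 with the term), and it is among the 6 lower in the authors' deposited table (-0.78 ± 0.27, adjusted p = 0.045). Prox1, the marker of dentate granule cells, had 15.2 to 90.8 CPM (median 29.4) in FSK and 12.5 to 55.9 CPM in DMSO, following the library sets (0.36 ± 0.20, adjusted p = 0.22 with the term). The layer factors Bcl11b, Fezf2, Cux1, Cux2, Rorb and Tle4 and the factors Mef2c and Meis2 had values with the term between -0.33 (Cux2) and 0.44 (Rorb), with adjusted p of 0.22 or higher.

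**Figure D2:**
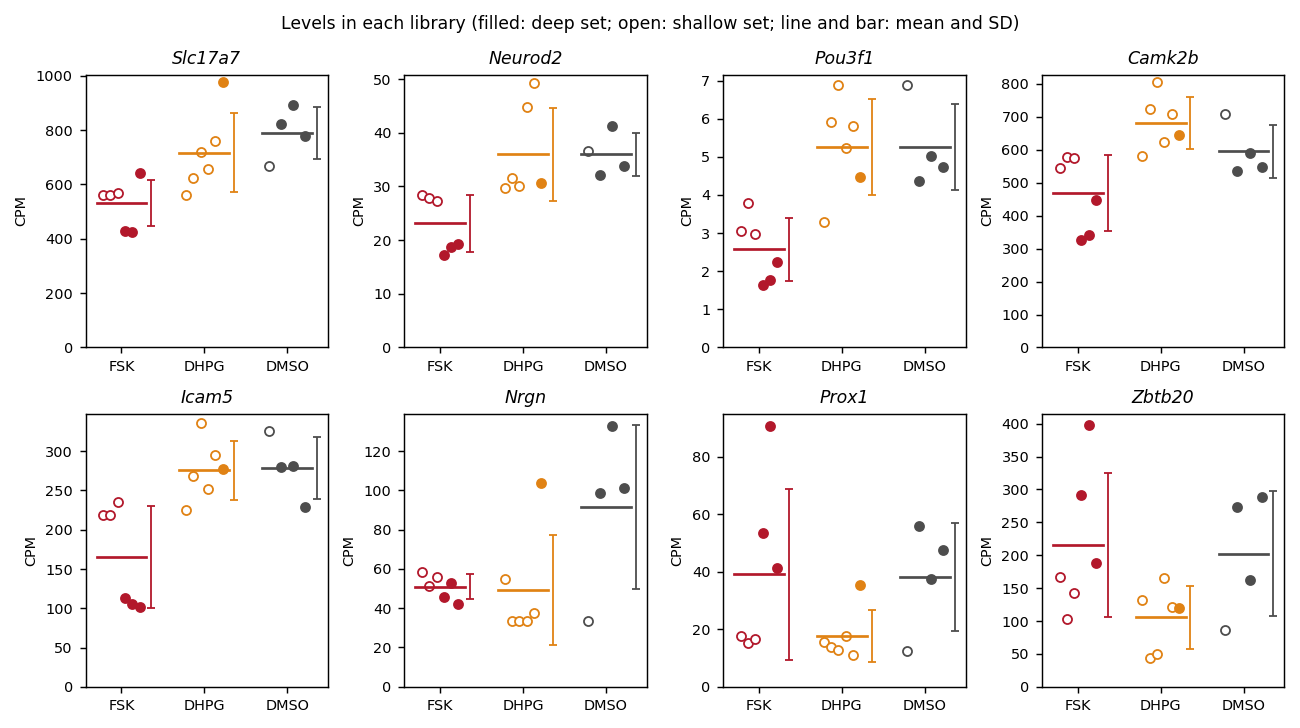
Level (CPM, linear axis from 0) in each library for 8 genes, with FSK left, DHPG middle and DMSO right; filled points are deep and open points shallow libraries, the line is the mean and the bar the SD. For Slc17a7, Neurod2 and Pou3f1 all FSK points lie below all DMSO points, whereas Nrgn and Prox1 are low in the open DMSO and DHPG points as well.

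All 5 genes of dendritic and postsynaptic signalling had negative values with FSK, and 3 passed with the term. Icam5 encodes telencephalin, an adhesion molecule of forebrain dendrites. It had 113, 105 and 102 CPM in FSK 4, 5 and 6, against 280.0, 281 and 229.6 CPM in DMSO 2, 3 and 4, so that all 3 deep FSK libraries lay below every DMSO library. Shallow libraries had 219, 219 and 235 CPM in FSK 1, 2 and 3, against 326 CPM in DMSO 1, and FSK 3 lay just above DMSO 4. The log2 fold change was -0.97 ± 0.18, adjusted p = 0.0095 with the term and -0.76 ± 0.23, adjusted p = 0.1 without it. Itpka, which phosphorylates inositol trisphosphate and bundles actin in spines, had 33.4, 37.2 and 47.7 CPM in FSK 4, 5 and 6, against 71.3, 73.0 and 70.7 CPM in DMSO 2, 3 and 4. It had 60.6, 60.0 and 60.1 CPM in FSK 1, 2 and 3, against 71.2 CPM in DMSO 1. The 4 DMSO libraries were close together and all 6 FSK libraries lay below them (-0.58 ± 0.17, adjusted p = 0.041 with the term; -0.52 ± 0.16, adjusted p = 0.11 without it).

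Camk2b, the beta subunit of calmodulin-dependent kinase II, which anchors the enzyme to actin, had 325, 343 and 448 CPM in FSK 4, 5 and 6, against 534, 589 and 547 CPM in DMSO 2, 3 and 4. It had 544, 577 and 577 CPM in FSK 1, 2 and 3, against 709.9 CPM in DMSO 1, and FSK 1 to 3 overlapped with the deep DMSO libraries. The value was -0.46 ± 0.12, adjusted p = 0.036 with the term and -0.34 ± 0.17, adjusted p = 0.24 without it. Camk2a, the alpha subunit that carries much of the kinase activity in forebrain synapses, had 254, 267 and 398 CPM in FSK 4, 5 and 6, against 426, 459 and 455 CPM in DMSO 2, 3 and 4. In the shallow set Camk2a had 296, 285 and 328 CPM in FSK 1, 2 and 3, against 373 CPM in DMSO 1, and only FSK 6 reached the DMSO range. It missed the limit with the term (-0.42 ± 0.13, adjusted p = 0.053) and is lower in the authors' deposited table (-0.50 ± 0.15, adjusted p = 0.022). Nrgn, neurogranin, which binds calmodulin at the postsynapse, had 45.5, 52.8 and 41.9 CPM in FSK 4, 5 and 6, against 98.7, 133 and 101 CPM in DMSO 2, 3 and 4. In the shallow set it had 58.3, 51.2 and 56.0 CPM in FSK 1, 2 and 3, against 33.5 CPM in DMSO 1, the opposite order. Neither fit called it (-0.85 ± 0.34, adjusted p = 0.17; -0.52 ± 0.32, adjusted p = 0.27 with the term).

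Of the 5 other subfield and layer markers 0 passed against DMSO with the term. Crym, a thyroid hormone-binding crystallin, had 74.7, 58.6 and 184 CPM in FSK 4, 5 and 6, against 152, 194 and 159 CPM in DMSO 2, 3 and 4. It had 162, 179.6 and 166 CPM in FSK 1, 2 and 3, against 208 CPM in DMSO 1, so that FSK 4 and FSK 5 were low and FSK 6 lay among the DMSO libraries (-0.50 ± 0.27, adjusted p = 0.21 with the term). Dkk3, a secreted protein of the Dickkopf family, had 106, 102 and 60.1 CPM in FSK 4, 5 and 6, against 90.4, 67.1 and 59.1 CPM in DMSO 2, 3 and 4, and 71.5, 62.6 and 67.8 CPM in FSK 1, 2 and 3, against 31.5 CPM in DMSO 1 (0.57 ± 0.27, adjusted p = 0.16). Fibcd1, a membrane protein enriched in CA1, had 20.7, 19.9 and 21.9 CPM in FSK 4, 5 and 6, against 43.1, 31.7 and 29.0 CPM in DMSO 2, 3 and 4. Shallow Fibcd1 levels were 32.0, 29.6 and 30.7 CPM in FSK 1, 2 and 3, against 30.7 CPM in DMSO 1, with overlap, and the fold change was -0.46 ± 0.15, adjusted p = 0.059. Ociad2 had 37.3, 32.1 and 57.5 CPM in FSK 4, 5 and 6, against 50.6, 47.3 and 44.7 CPM in DMSO 2, 3 and 4, and 56.2, 56.2 and 56.1 CPM in FSK 1, 2 and 3, against 75.7 CPM in DMSO 1 (-0.26 ± 0.14, adjusted p = 0.21). Wfs1, a protein of the endoplasmic reticulum that marks CA1, had 18.4 to 51.3 CPM (median 38.5) in FSK and 39.9 to 51.9 CPM in DMSO (-0.57 ± 0.25, adjusted p = 0.13).

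Within the deep libraries 13 of the 31 were lower with FSK and 0 higher, where 11.8% of all features passed and 7.49% were lower: the 8 named above with Nrgn, Camk2a, Wfs1, Fibcd1 and Cux2. The median was -0.40, and the 5 dendritic and postsynaptic genes, all called, had a median of -0.86, led by Icam5 (-1.30 ± 0.14, adjusted p = 0.00017) and Nrgn (-1.25 ± 0.19, adjusted p = 0.0012). Mitochondrial rRNA also differed there, at 24.2, 27.7 and 22.2% of counts in FSK 4, 5 and 6, against 10.8, 18.7 and 15.8% in DMSO 2, 3 and 4, without overlap, and its part in these calls was not tested. In the shallow set 0 passed, with 5 at unadjusted p under 0.05, where 0.0466% of features passed, and the median was 0.03. That contrast has a single DMSO library, assumed to vary like the other groups. The value was -1.08 ± 0.32 for Pou3f1, -0.54 ± 0.19 for Icam5 and 0.72 ± 0.27 for Nrgn.

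The forskolin effect was tested for a difference between the sets directly. It was more negative in the deep set for 27 of the 31 genes, with a median difference of -0.44, but 0 passed and 10 had an unadjusted p under 0.05, where 0.0175% of all features passed and 0.0116% were lower. The smallest p belonged to Nrgn (-1.97 ± 0.34, adjusted p = 0.092) and Lhx2 (-0.86 ± 0.17, adjusted p = 0.21). Leaving out FSK 6 gave 4 calls, leaving out DHPG 1 gave 1, and leaving out FSK 4 and FSK 5 together gave 3. Shares over all features are not given for these fits, so the counts cannot be read as particular to these genes. With all libraries, the effect was more negative in the deep set for 9120 of 17173 features, with a median difference of -0.03. The same held for 32 of 43 genes of the wider excitatory list below. Among markers it held for 13 of 16 pan-neuronal, 13 of 17 GABAergic, 10 of 13 astrocyte and 0 of 13 microglial genes. All these values share 1 shallow DMSO library, and the difference cannot be tested without DMSO 1.

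The 31 genes also differed between the library sets themselves. In the fit with treatment and library set, 8 were higher and 7 lower in deep than in shallow libraries, where 34.5% of all features passed, 18.9% higher and 15.6% lower. Prox1 was farthest from 0 (1.76 ± 0.18, adjusted p = 7.7e-06), followed among the higher genes by Zbtb20 (0.97 ± 0.34), Tbr1 (0.72 ± 0.18), Dkk3 (0.70 ± 0.23), Nrgn (0.69 ± 0.26), Rorb, Tle4 and Fezf2. Lower were Slc17a6 (-0.78 ± 0.21, adjusted p = 0.0089), Neurod6 (-0.72 ± 0.18), Pou3f1, Icam5, Ociad2, Camk2b and Neurod2. Of the 5 genes with FSK below DMSO in every library, Neurod2 and Pou3f1 are thus also among those lower in deep libraries, and Slc17a7, Emx1 and Itpka are not.

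**Figure D3:**
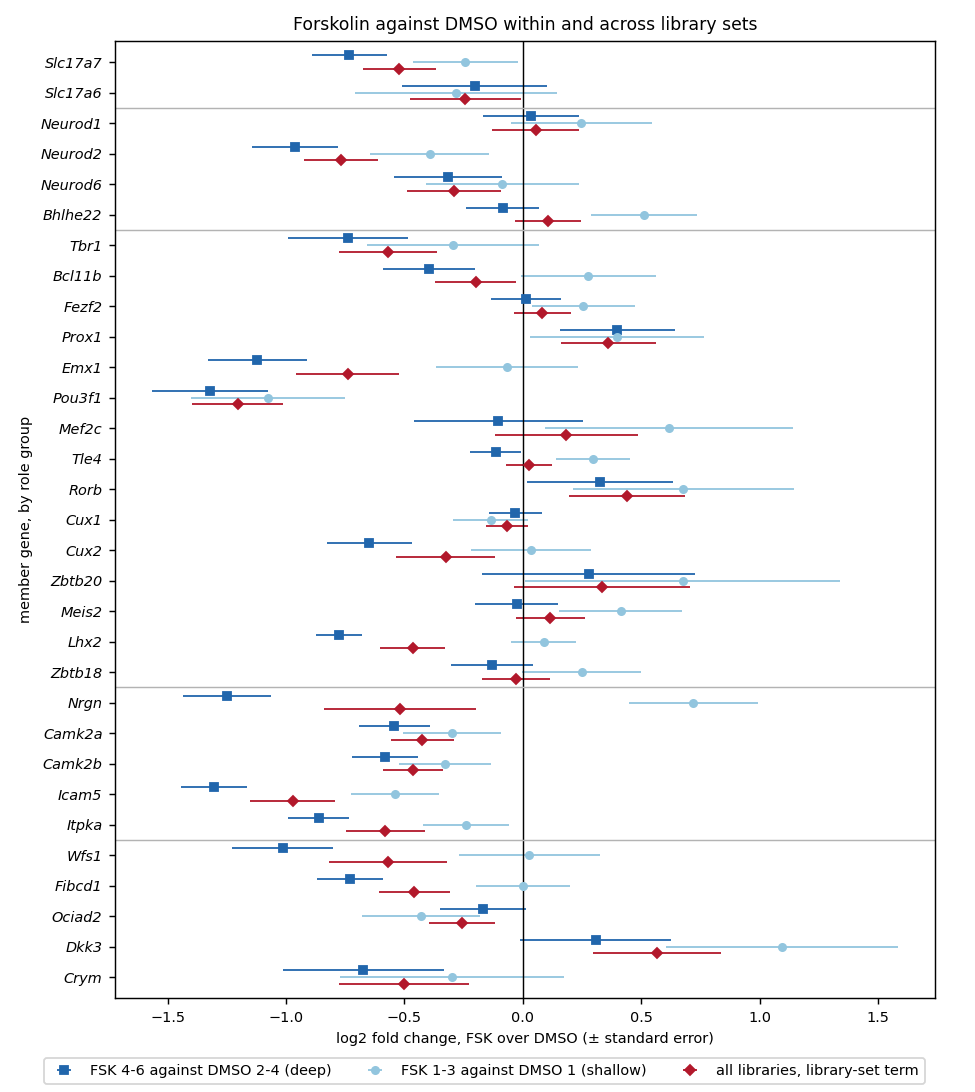
Log2 fold change of FSK over DMSO with its standard error for each of the 31 genes (rows, grouped by role), within the deep libraries (dark squares), within the shallow libraries (light circles) and over all libraries with the library-set term (diamonds). Dark squares lie left of 0 for 25 of the 31 genes; light circles lie on both sides, and Nrgn has its square at -1.25 and its circle at 0.72.

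Markers of other cells also differed between these libraries. All 13 microglial markers had positive values with FSK (median 3.20). Of these, 0 passed without the term and 5 with it, where 3.45% of all features were higher. Within the deep libraries 12 of the 13 were higher (median 4.35), where 4.3% of all features were higher. Their summed level was 26.1 to 381 CPM in FSK, 28.2 to 55.8 in DHPG and 23.4 to 41.0 in DMSO libraries, and none of the defining markers Cx3cr1, C1qa, Gad1, Gad2, Slc32a1, Gfap, Aqp4, Olig1, Mbp, Ttr, Col1a1 or Mki67 was at 0 in any library. Relative to the deep DMSO libraries, the mean log2 level of the microglial markers differed by 3.82, 4.58 and -0.13 in FSK 4, 5 and 6, that of oligodendrocyte lineage markers by 1.29, 1.58 and -0.55, and that of astrocyte markers by 0.16, 0.12 and -0.14. Pan-neuronal markers differed by -0.70, -0.55 and -0.04 and GABAergic markers by -0.63, -0.75 and 0.01. The 31 genes differed by -0.55, -0.45 and -0.34, and the dendritic and postsynaptic genes by -1.04, -0.95 and -0.76. Endothelial markers differed by 1.20, 0.30 and -0.32, and choroid plexus and ependymal markers by 0.72, 0.34 and -0.59. Fibroblast, mural and meningeal markers differed by 0.90, -0.09 and -0.75, and cycling genes by 0.83, 1.39 and 0.15. Among shallow libraries, oligodendrocyte lineage markers lay 2.48, 1.94 and 2.21 above DMSO 1 in FSK 1, 2 and 3. FSK 6 thus had dendritic and postsynaptic genes at -0.76 relative to the deep DMSO libraries, with microglial and pan-neuronal markers within their range. The other role groups lay nearer 0 in FSK 6. They were at -0.02 for vesicular transporters, -0.18 for bHLH factors, -0.33 for the other transcription factors and -0.21 for the other subfield and layer markers. In FSK 6 markers of some other cells also differed. Its oligodendrocyte lineage, choroid plexus and ependymal, and fibroblast, mural and meningeal markers lay below all deep DMSO libraries. Astrocyte and endothelial markers lay just below them, and mitochondrial rRNA lay above them. The part of other cells in the values of FSK 4, FSK 5 and FSK 6 was not tested.

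**Figure D4:**
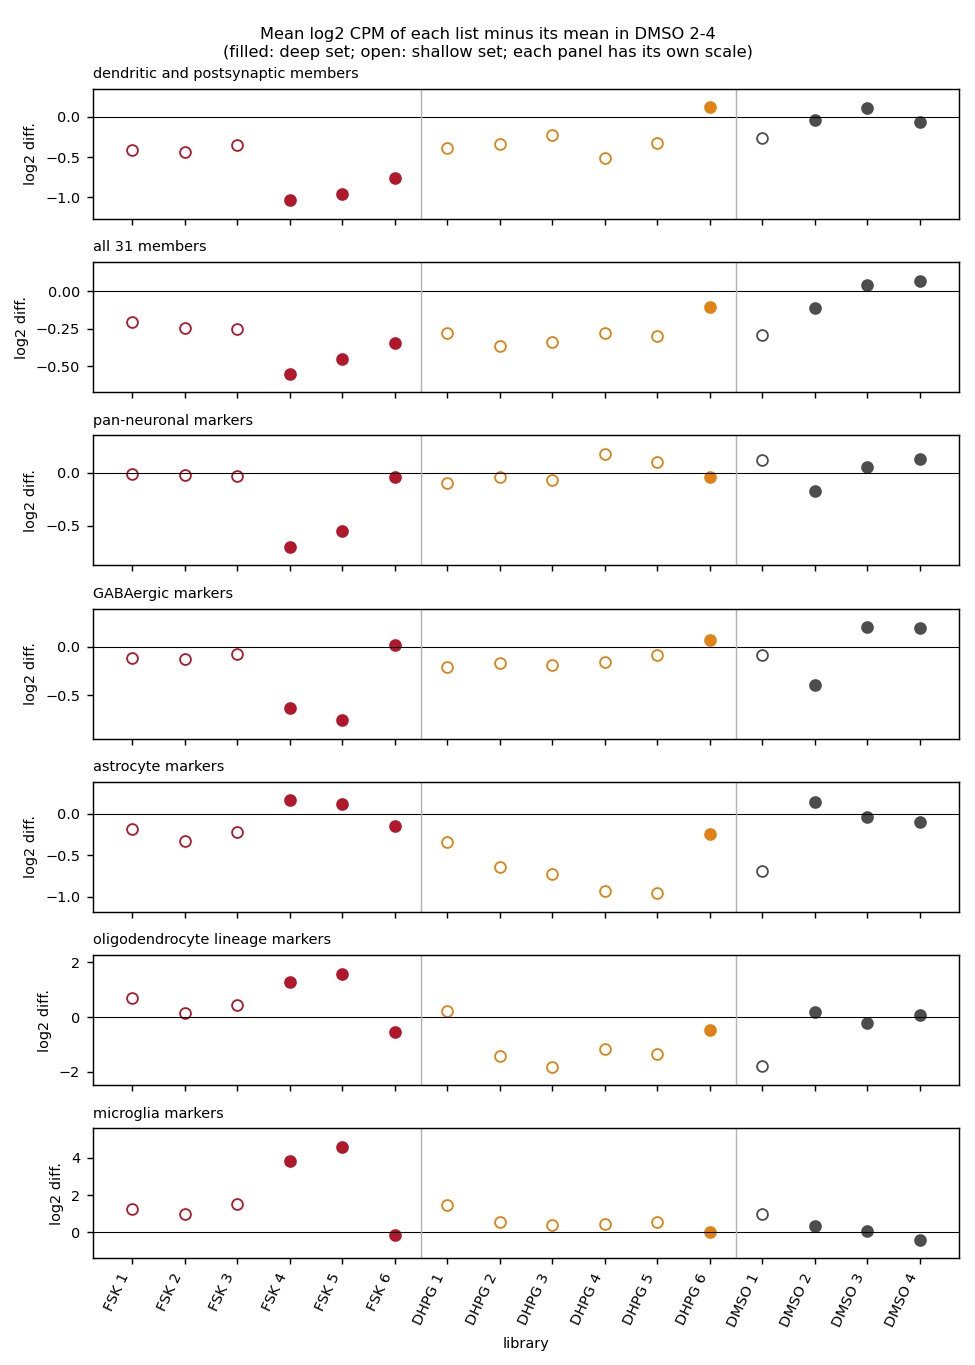
Mean log2 CPM of each gene list in each library, minus its mean in DMSO 2 to 4 (vertical axis, log2 units, a separate scale in each panel); filled points are deep and open points shallow libraries, in the order FSK, DHPG, DMSO. The dendritic and postsynaptic genes are low in FSK 4, 5 and 6, whereas pan-neuronal and GABAergic markers are low in FSK 4 and 5 alone among the deep FSK libraries and microglial markers are high in the same 2.

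With DHPG, 0 of the 31 genes passed against DMSO, where 0.00582% of all features, which is 1 feature, passed. Of the 31, 9 had an unadjusted p under 0.05, as did 2129 of the 17173 features, and DESeq2 and limma-voom called 0 of the 31. The median was -0.14, beside -0.01 over all features. With the library-set term, where 0 of all features passed, it was -0.18. There 1 of the 31 had an unadjusted p under 0.05, as did 400 of the 17173 features. No gene had all DHPG libraries below or above all DMSO libraries, as did 0.67% and 0.641% of all features.

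The 3 smallest p with DHPG belonged to Lhx2, Nrgn and Tle4. For Lhx2 the levels were 49.5, 51.4, 47.2, 42.7 and 45.6 CPM in DHPG 1 to 5 and 63.2 CPM in DHPG 6, against 49.8 CPM in DMSO 1 and 75.9, 76.8 and 74.8 CPM in DMSO 2, 3 and 4. The fold change was -0.47 ± 0.14, adjusted p = 0.4, and -0.39 ± 0.15, adjusted p = 1 with the term. For Nrgn they were 54.9, 33.5, 33.4, 33.6 and 37.4 CPM in DHPG 1 to 5 and 104 CPM in DHPG 6, against 33.5 CPM in DMSO 1 and 98.7, 133 and 101 CPM in DMSO 2, 3 and 4. Nrgn thus followed the library set, low in every shallow library of both groups, at -0.89 ± 0.34, adjusted p = 0.4 without the term and -0.48 ± 0.33, adjusted p = 1 with it. Tle4, a Groucho corepressor of lower cortical layers, had 47.2, 43.3, 40.8, 42.9 and 36.2 CPM in DHPG 1 to 5 and 58.6 CPM in DHPG 6, against 40.6 CPM in DMSO 1 and 62.1, 63.0 and 68.0 CPM in DMSO 2, 3 and 4. It also followed the set (-0.38 ± 0.15, adjusted p = 0.4; -0.13 ± 0.11, adjusted p = 1 with the term).

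Genes lower with FSK in the fit with the term had DHPG and DMSO ranges that overlapped, as did Camk2a, which missed the limit there. Lhx2, 1 of these genes, was about as negative with DHPG as with FSK. The authors' deposited tables give it -0.47 ± 0.15 with DHPG and -0.52 ± 0.15 with FSK. With DHPG they give -0.22 ± 0.15 for Emx1 and -0.09 ± 0.12 for Itpka. Slc17a7 had 559.6 to 977 CPM (median 689) in DHPG, against 667 to 894 CPM in DMSO libraries (-0.14 ± 0.16, adjusted p = 0.65). Neurod2 had 29.7 to 49.2 CPM (median 31.1) in DHPG and 32.1 to 41.3 CPM in DMSO (0.00 ± 0.18). Pou3f1 had 3.29 to 6.89 CPM (median 5.52) in DHPG and 4.37 to 6.89 CPM in DMSO (0.00 ± 0.25). Icam5 had 225 to 336 CPM (median 273) in DHPG and 229.6 to 326 CPM in DMSO (-0.02 ± 0.24). Camk2b had 582 to 805 CPM (median 677) in DHPG and 534 to 709.9 CPM in DMSO (0.20 ± 0.17), and Camk2a 301 to 486 CPM (median 344) in DHPG and 373 to 459 CPM in DMSO (-0.26 ± 0.15). Prox1 had the farthest value from 0, -1.11 ± 0.51 (adjusted p = 0.4), which was -0.01 ± 0.23 with the term. In the authors' deposited table, where 1.48% of features with an adjusted p passed, 0 of the 31 passed for DHPG.

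Set against DHPG, forskolin gave 11 of the 31 genes past the limit, 9 lower and 2 higher, where 30.8% of all features passed, 14.4% lower and 16.3% higher, so the share called in either direction is close to that of all features. With the library-set term 8 passed, 7 lower and 1 higher, where 23.3% of all features passed, 11.9% lower and 11.4% higher. The share called in either direction was again close to that of all features. Both comparisons of FSK use the same 6 FSK libraries. Slc17a7, Neurod2, Pou3f1, Camk2b, Icam5, Fibcd1 and Crym were lower and Dkk3 higher with and without the term, while Itpka, Ociad2 and Meis2 passed without it. Neurod2, Camk2b and Fibcd1 had every FSK library below every DHPG library, as did 4.03% of all features, and none had every one above, as did 3.21%.

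The counts against DHPG also moved with single libraries. Without the term there were 4 calls without DHPG 3, 5 without DHPG 5, 5 without FSK 4, 4 without FSK 5 and 0 without both of the last, where 0.0179% of all features passed. With the term there were 0 without DHPG 6 or FSK 1, 4 without DHPG 3, 5 without DHPG 5, 13 without DHPG 1 and 4 without FSK 4 and FSK 5, where 9.27% of all features passed. The counts over all features thus fell without FSK 4 and FSK 5 as well, and they are not given for the fits that left out 1 library. Within the deep libraries, which hold a single DHPG library, 12 were lower and 0 higher, where 15.1% of features passed, 8.84% lower and 6.27% higher, and within the shallow libraries 0 passed, as did 0.0466% of features.

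For Neurod2 the levels were 17.2 to 28.5 CPM (median 23.3) in FSK, against 29.7 to 49.2 CPM (median 31.1) in DHPG libraries (-0.64 ± 0.17, adjusted p = 0.018; -0.54 ± 0.14, adjusted p = 0.023 with the term). Camk2b had 325 to 577 CPM (median 496) in FSK, against 582 to 805 CPM (median 677) in DHPG, with the highest FSK library just below the lowest DHPG library (-0.54 ± 0.15, adjusted p = 0.021; -0.44 ± 0.11, adjusted p = 0.022 with the term). Pou3f1 had 1.64 to 3.78 CPM (median 2.61) in FSK and 3.29 to 6.89 CPM (median 5.52) in DHPG, overlapping only through DHPG 1 (-1.04 ± 0.23, adjusted p = 0.016; -0.89 ± 0.18, adjusted p = 0.018 with the term). In each of these the deep FSK libraries were the lowest. Icam5 had 102 to 235 CPM (median 166) in FSK and 225 to 336 CPM (median 273) in DHPG (-0.74 ± 0.21, adjusted p = 0.023; -0.64 ± 0.16, adjusted p = 0.021 with the term), and Slc17a7 426 to 644 CPM (median 561) in FSK and 559.6 to 977 CPM (median 689) in DHPG (-0.43 ± 0.14, adjusted p = 0.032; -0.47 ± 0.14, adjusted p = 0.03 with the term).

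Of the 5 markers that are not transcription factors, 3 were lower and 1 higher with FSK than with DHPG without the term. Crym had 162, 179.6, 166, 74.7, 58.6 and 184 CPM in FSK 1 to 6, against 184, 206, 229, 295, 343 and 252 CPM in DHPG 1 to 6. FSK 4 and FSK 5 lay far below all others, and FSK 6 lay just above DHPG 1 (-0.87 ± 0.26, adjusted p = 0.024; -0.78 ± 0.25, adjusted p = 0.035 with the term). Dkk3 ran the other way, with 71.5, 62.6, 67.8, 106, 102 and 60.1 CPM in FSK 1 to 6, against 62.1, 33.4, 27.0, 24.7, 24.6 and 61.3 CPM in DHPG 1 to 6. DHPG 2 to 5 were low and DHPG 1 and 6 overlapped with FSK (1.01 ± 0.29, adjusted p = 0.023, and 0.81 ± 0.24, adjusted p = 0.03 with the term). Relative to the deep DMSO libraries, astrocyte markers lay at -0.64, -0.73, -0.93 and -0.96 in DHPG 2 to 5. They lay at -0.35 and -0.24 in DHPG 1 and 6, and at -0.33 to 0.16 in FSK libraries. Without the term 5 of 13 astrocyte and 9 of 13 microglial markers were higher with FSK, where 16.3% of all features were higher. Of 12 oligodendrocyte lineage markers 6 were higher and 1 lower. The part of other cells in these values was not tested. Fibcd1 had 19.9 to 32.0 CPM (median 25.8) in FSK and 32.1 to 43.3 CPM (median 37.3) in DHPG (-0.54 ± 0.14, adjusted p = 0.018), and Ociad2 32.1 to 57.5 CPM (median 56.2) in FSK and 52.9 to 87.4 CPM (median 72.6) in DHPG (-0.53 ± 0.18, adjusted p = 0.035). Itpka had 33.4 to 60.6 CPM (median 53.9) in FSK and 54.4 to 84.2 CPM (median 64.1) in DHPG (-0.43 ± 0.15, adjusted p = 0.04). Meis2, a homeobox factor, was higher with FSK, at 38.8, 37.0, 37.2, 44.0, 33.5 and 37.0 CPM in FSK 1 to 6, against 35.6, 28.8, 22.1, 28.4, 25.0 and 32.3 CPM in DHPG 1 to 6 (0.40 ± 0.13, adjusted p = 0.035; 0.35 ± 0.13, adjusted p = 0.065 with the term).

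A wider list of 45 excitatory and subfield genes, of which 43 passed the filter, was set beside the 31. Against DMSO 1 of the 43 was lower with FSK and 0 higher, with a median of -0.14, where 0.46% of all features were lower. With the library-set term 9 were lower and 0 higher, where 5.99% of all features were lower and 3.45% higher. Cnih2, an auxiliary subunit of AMPA receptors, was lower in both fits, at 138 ± 11.9 CPM in FSK and 222 ± 23.5 CPM in DMSO libraries (SD, n = 6 and 4; -0.69 ± 0.13, adjusted p = 0.025; -0.64 ± 0.12, adjusted p = 0.013 with the term). Others among them were C1ql2, a synaptic organizer of mossy fibres (-0.87 ± 0.19), Necab2 (-0.50 ± 0.12), Rgs14, a G-protein regulator of the CA2 field (-0.54 ± 0.15), the kainate receptor subunit gene Grik4 (-0.44 ± 0.12), Camkv (-0.54 ± 0.15), Nptx1, which clusters AMPA receptors (-0.63 ± 0.19), and the developmental factor Nfix (-0.43 ± 0.13). Without FSK 4 and FSK 5 and with the term 0 of the 43 passed, with a median of -0.06. There 0.335% of all features passed and 0.0658% were lower, so calls were few over the whole table. With DHPG 0 of the 43 passed, where 0.00582% of all features passed without the term and 0 with it. Among the 16 pan-neuronal markers 4 were lower with FSK with the term (Tubb3, Rbfox3, Nefh and Uchl1), with a median of -0.32. Among the 17 GABAergic markers 2 were lower in that fit (Slc32a1 and Calb2), with a median of -0.30. There 5.99% of all features were lower, and no difference in share was tested.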

How the data were processed

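Total RNA of 16 libraries (6 FSK, 6 DHPG, 4 DMSO) was used; the miRNA files were not used here. Per the labels' protocols, libraries were made with TruSeq Stranded Total RNA. The submitters' processing notes name Salmon, DESeq and build GRCm38, with no role; versions were not given in the sources used here. The deposited values are estimated counts, of which 26.6% are not whole, and they were rounded before every test. Control columns of the deposited table were matched to DMSO samples by number. The authors' deposited tables also hold, for each feature, the log2 fold change and its error. Raw and adjusted p-values are also in the authors' deposited tables, made by the authors' comparison of each treatment with DMSO, per the file headers, and are quoted only where named.

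Features were filtered with filterByExpr (minimum count 10), leaving 17173 of 51267. All 16 libraries entered 1 fit of edgeR 4.0.16 (quasi-likelihood F test, robust, TMM factors, group as the only term) in R 4.3.3, with Benjamini-Hochberg adjustment over all features tested and a limit of 0.05. Fold changes are log2 ± standard error. Levels are CPM on TMM-scaled library sizes, and the prior count for log2 CPM was 2. CPM is not per length, so levels of different genes are not compared. The library-set term separates totals of at least 30000000 counts from the rest and was chosen from the data. Alternatives included DESeq2 1.42.0, limma-voom (limma 3.58.1), other scalings and filters, a replicate block, and leaving out libraries; leaving 1 library out of the fit with the library-set term was added after the data were seen. No libraries of 1 group agreed within sampling noise.

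All 31 genes are named; values by library, or the lowest, median and highest of 6, are given for those called in either fit, the 3 of smallest p per comparison and the 2 of highest mean level per role, and ranges for the others. From other lists up to 3 genes of smallest p and fixed defining markers are named. Further called genes of the wider and pan-neuronal lists were named after their values were seen. The genes and lists were chosen with earlier results of these data known. The fits were tested on simulated counts with known changes in FSK. That simulation gave every gene the same spread and held no library-set effect, so it does not cover the library sets seen here.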

Additional observations from a re-analysis of the deposited data

Results flagged for a closer look

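Of 93 groups of values (31 genes in 3 groups), 5 held a library whose gap to its nearest neighbour was large for the group's range by Dixon's criterion at 95%, and chance flags about 1 in 20 groups. In DHPG libraries these were Nrgn at 104 CPM, Camk2a at 486 CPM and Prox1 at 35.5 CPM, each highest in DHPG 6, the only deep DHPG library, and Zbtb18 at 331 CPM in DHPG 4. In DMSO libraries Lhx2 was lowest at 49.8 CPM in DMSO 1, the only shallow DMSO library.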

How the results depend on the processing

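For FSK against DMSO, where 0 of the 31 genes passed, the count was 8 with the library-set term, 13 within the deep libraries, 7 with the DESeq2 Wald test and 1 by limma-voom, all lower. The median of -0.27 became 0.03 within the shallow libraries and -0.10 without FSK 4 and FSK 5 with the term. Leaving out 1 library gave counts of 0 to 4 (1 without DMSO 1, 1 without DHPG 1, 4 without DHPG 6) and medians of -0.29 to -0.20. With the term in the fit the count of 8 ranged from 2 to 11. Counts in this section stand without shares over all features, so their moves cannot be read as particular to these genes. For DHPG against DMSO every alternative gave 0 calls, and leaving out 1 library gave 0 to 0 and medians of -0.25 to -0.08. For FSK against DHPG the count of 11 became 4 with library totals without TMM, 5 without a filter, 0 within the shallow libraries, 0 without FSK 4 and FSK 5 and 4 without them with the term. The median of -0.12 became -0.32 within the deep and 0.06 within the shallow libraries. Leaving out 1 library gave 4 to 15 calls and medians of -0.20 to -0.02, and 0 to 13 calls with the term. The difference of the FSK effect between sets, with 0 calls, gave 1 without a filter, 3 without FSK 4 and FSK 5 and 0 to 4 on leaving out 1 library.

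For genes called or with an unadjusted p under 0.05 in either fit (13 for FSK against DMSO, 9 for DHPG against DMSO and 20 for FSK against DHPG), direction turned within the shallow libraries for Nrgn (0.72), Lhx2 (0.09), Wfs1 (0.03) and Fibcd1 (0.00) with FSK and for Zbtb20 (0.25), Nrgn (0.20), Prox1 (0.18), Dkk3 (0.13), Tle4 (0.05) and Fezf2 (0.02) with DHPG against DMSO. With library-set term and replicate block together it turned for Dkk3 (0.56) and Prox1 (0.30) with DHPG. Of their other alternatives, 356 of FSK against DMSO kept their side of the limit and 43 gained the call, 271 of DHPG against DMSO kept it, and for FSK against DHPG 495 kept it, 26 gained the call and 99 lost it. Over all 31 genes, 8 turned within the shallow libraries for FSK against DMSO, 16 for DHPG against DMSO and 5 for FSK against DHPG. The cause of these changes was not tested. The replicate block gave 2 calls for FSK against DMSO, 0 for DHPG against DMSO and 10 for FSK against DHPG, and block and library-set term together 10, 0 and 3. The labels do not say that numbers pair the libraries, so the block rests on shared numbers only. For FSK against DMSO the deviations of same-numbered libraries from their group means correlated at 0.39, -0.41, -0.20 and 0.06. For FSK against DHPG they correlated at -0.31 (replicate 4) to 0.22 (replicate 6). These deviations still hold the library set, so they cannot decide whether numbers pair libraries. Shallow libraries hold a single DMSO library and deep libraries a single DHPG library, which limits every value within a set. With library totals without TMM the median of all features moved by less than 0.1.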
